A study of Mus musculus with 70 samples.

Results

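Gene expression was compared directly between the cerebral cortex of mice lacking the short isoform of Capicua (Cic-S-KO) and that of mice without the long one (Cic-L-KO), both at 12 weeks of age. The samples were taken by their tissue and genotype labels: 7 Cic-S-KO and 8 Cic-L-KO cortex libraries, 15 of the 70 in the series. Cortex from 8 wild-type littermates (WT) of the same age is given beside them as the control level and was not tested here. WT littermates of both lines form 1 control group, and the labels do not say from which line each came. They name no Cre, promoter or allele, so that isoform, tissue and age are all that is stated of each model. Every cortex library carried the label of batch 2, and RNA came from flash-frozen tissue selected for polyadenylated transcripts. The labels number the replicates but do not say that each came from a separate animal, so that p-values measure the spread between these samples. The cerebellum of the same genotypes and age served as a reference for where the cortex difference departs from another brain region.

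Capicua is a transcriptional repressor of the HMG-box family that binds short octamer sequences and works with its partners ataxin-1 (Atxn1) and ataxin-1-like (Atxn1l). Signalling from receptor tyrosine kinases through the MAP kinase pathway relieves this repression, and genes of the Ets factors Etv4 and Etv5 and of the Sprouty, Spred and Dusp feedback inhibitors are among its described targets. In the brain, loss of Capicua has been tied to neurodevelopmental and behavioural phenotypes, and its complex with polyglutamine-expanded ataxin-1 to spinocerebellar ataxia.

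The Cic gene (ENSMUSG00000005442, chromosome 7, GRCm38.p6) has annotated transcripts from a pair of start sites 14480 bases apart. The transcript from the upstream start encodes 2510 residues, and those from the downstream start encode 1604 residues, which is the difference between the long and the short isoform. The 120 bases before each start are shown because the compared mice differ in which of the products they lack. They come from RefSeq promoter entries on GRCm38.p6, at chr7:25267579-25267698 (plus strand) and chr7:25282059-25282178 (plus strand).
Cic upstream start: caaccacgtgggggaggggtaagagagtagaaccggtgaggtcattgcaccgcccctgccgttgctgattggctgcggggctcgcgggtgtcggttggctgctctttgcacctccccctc
Cic downstream start: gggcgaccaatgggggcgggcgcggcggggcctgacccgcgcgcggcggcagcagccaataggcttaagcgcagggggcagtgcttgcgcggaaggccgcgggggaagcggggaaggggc

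The Capicua octamer was searched as TGAATGAA, TGAATGGA, TCAATGAA and TCAATGGA on both strands, from 250 bases before to 50 bases after each start in the RefSeq promoter table. Of 18 listed Capicua targets, 10 had an entry, and 4 of these held an octamer. All 4 are shown with the octamer in capitals, since their transcripts are described below. Spred3 is at chr7:29168648-29168707 (minus strand), Spry2 at chr14:105896820-105896879 (minus strand), Dusp6 at chr10:99263171-99263230 (plus strand) and Maff at chr15:79347505-79347534 (plus strand), all on GRCm38.p6 and written 5′ to 3′ in the direction of transcription.
Spred3: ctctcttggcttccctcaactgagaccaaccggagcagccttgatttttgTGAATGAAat
Spry2: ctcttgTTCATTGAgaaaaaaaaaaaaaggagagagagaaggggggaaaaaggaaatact
Dusp6: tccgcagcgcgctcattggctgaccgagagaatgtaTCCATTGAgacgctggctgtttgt
Maff: gactgggtttttaTGAATGAAaggaatcct
The octamer began 10 bases before the start in Spred3, 54 before it in Spry2, 24 before it in Dusp6 and 2 before it in Maff. Dusp6 held another at base 2 after the start, outside the stretch shown. Among all promoters with an entry, 1260 of 32851 held an octamer (3.835%).

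Total counts ranged from 20730808 to 32548951 reads over the cortex libraries. Cic-S-KO libraries held 26118135 ± 4064932 reads (mean ± SD, n = 7) and Cic-L-KO libraries 26194679 ± 3173609 (n = 8), a difference within the spread (two-sided exact permutation p = 0.968). Levels are given as counts scaled to library size (CPM), normalised between libraries and not for gene length, so that they compare samples and not genes. Transcripts linked to the Y chromosome were present in 3 of 7 Cic-S-KO, 4 of 8 Cic-L-KO and 4 of 8 WT libraries, and no library held both these and Xist. The cortex label fitted the markers: Slc17a7, Camk2a, Tbr1, Gad1 and Mbp were present in every library. Markers of choroid plexus and ependyma, and of striatal neurons, varied widely between libraries. The summed CPM of the 12 choroid plexus and ependymal genes ranged from 20.8 to 668 (median 36.0) in Cic-S-KO, from 30.1 to 1404 (median 447) in Cic-L-KO and from 31.6 to 631 in WT. That of 10 striatal genes ranged from 228 to 764 (median 669) in Cic-S-KO, from 215 to 647 (median 365) in Cic-L-KO and from 218 to 634 in WT. No gene of either list was at 0 in a whole group. Their part in the results below was not tested as a cause, but a fit holding both sums as covariates was run, and the counts of each list in it are given as those with the covariates where they differ.

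Cic itself was measured over both isoforms together, since counts are per gene, so that its level does not show which isoform a library lacks. It ranged from 237 to 260.5 (median 250.3) CPM in Cic-S-KO, from 269 to 318 (median 303.5) in Cic-L-KO and from 150.3 to 173 (median 161) in WT. All 7 Cic-S-KO samples lay below all 8 Cic-L-KO samples and above all WT samples. The difference between the knockouts was -0.25 on the log2 scale (SE 0.0379, adjusted p = 5.06e-06, edgeR). Here and below a log2 fold change is Cic-S-KO minus Cic-L-KO, so that a negative value is a lower level in Cic-S-KO, and a gene past the threshold had an adjusted p under 0.05. A signed number in parentheses after a gene is its log2 fold change, and a level written with ± is the mean and SD over 7 Cic-S-KO, 8 Cic-L-KO or 8 WT samples.

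Between the knockouts, 5757 of 16974 tested genes passed the threshold, 33.9% of those tested. Of these, 2950 were higher in Cic-S-KO (17.4%) and 2807 lower (16.5%). These shares are the level beside which each list count below is to be read. Most differences were small: genes past the threshold had a median size of 0.30 on the log2 scale, with quartiles of 0.19 and 0.54. The larger differences lay more often on the lower side. A difference of 0.5 or more on the log2 scale was reached by 1617 genes (9.53%), of which 666 were higher (3.92%) and 951 lower (5.6%) in Cic-S-KO. A difference of 1 or more was reached by 399 (2.35%), 156 of them higher (0.919%) and 243 lower (1.43%). The CPM ranges of the knockout groups did not overlap at 1802 genes (10.6%), 909 higher (5.36%) and 893 lower (5.26%). With the choroid plexus and striatal sums in the fit, 4420 genes passed, of which 4160 were among the 5757.

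**Figure D1:**
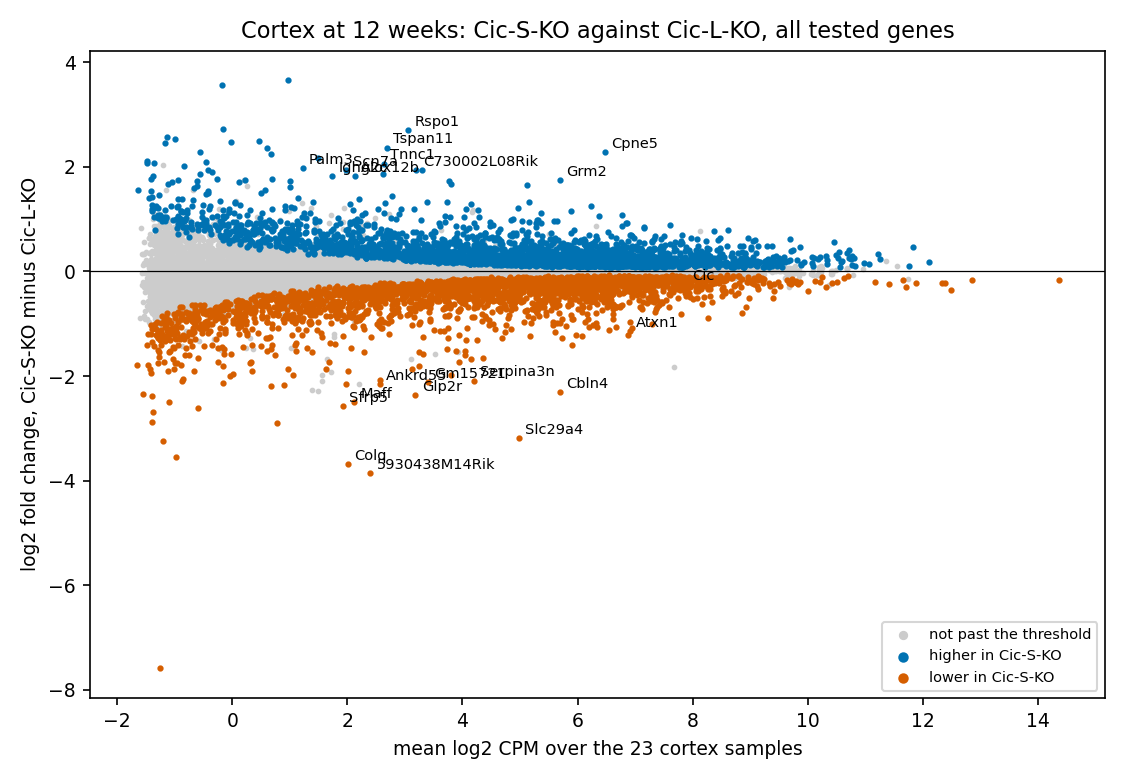
Log2 fold change (Cic-S-KO minus Cic-L-KO) of each of the 16974 tested genes against its mean log2 CPM over the 23 cortex samples, with genes past the threshold in colour (2950 higher, 2807 lower in Cic-S-KO). The largest named differences, among genes averaging 1 or more on that axis, reach -3.86 on the lower and 2.69 on the higher side.

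Among genes whose log2 CPM averaged 1 or more and whose knockout ranges did not overlap, the 10 furthest below in Cic-S-KO were 5930438M14Rik, Colq, Slc29a4, Sfrp5, Maff, Glp2r, Cbln4, Ankrd55, Gm15721 and Serpina3n. They include a transporter, secreted proteins, a receptor and noncoding RNAs, and in 9 of the 10 the Cic-S-KO range overlapped that of WT. 5930438M14Rik, a long intergenic noncoding RNA on chromosome 13 (101232127 to 101247551), ranged from 0.622 to 1.15 (median 0.967) CPM in Cic-S-KO, from 10.1 to 14.4 (median 13.1) in Cic-L-KO and from 0.973 to 1.72 (median 1.415) in WT (-3.86, SE 0.146, adjusted p = 8.27e-19, edgeR). Colq, which encodes the collagen-like tail that anchors acetylcholinesterase, ranged from 0.335 to 0.988 (median 0.819) CPM in Cic-S-KO, against 7.75 to 13.1 (median 9.03) in Cic-L-KO, beside 0.634 to 1.89 (median 1.06) in WT (-3.69, SE 0.209). Slc29a4, which encodes the plasma membrane monoamine transporter, ranged from 4.55 to 12.3 (median 7.47) CPM in Cic-S-KO, against 65.02 to 86.97 (median 74.8) in Cic-L-KO, with 6.77 to 12.8 (median 8.09) in WT (-3.19, SE 0.182). In these 3 genes Cic-L-KO stood apart from both other groups, while the Cic-S-KO and WT ranges overlapped.

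Sfrp5, a secreted inhibitor of WNT signalling, was at 0.298 to 3.73 (median 0.8) CPM in Cic-S-KO, against 7.67 to 9.62 (median 8.22) in Cic-L-KO, a log2 fold change of -2.58 (SE 0.353, adjusted p = 5.65e-06, edgeR). Its WT samples ranged from 0.429 to 1.82 (median 0.705) CPM, and the Cic-S-KO samples were more spread than those of either other group. Glp2r, the receptor of glucagon-like peptide-2, ranged from 3.02 to 4.59 (median 3.19) CPM in Cic-S-KO, against 14.5 to 20.7 (median 18.25) in Cic-L-KO (-2.36, SE 0.119). Cbln4, a cerebellin that organises synapses from the extracellular side, ranged from 15.03 to 24.9 (median 20.02) CPM in Cic-S-KO, against 89.99 to 114 (median 102) in Cic-L-KO, beside 20.5 to 37.7 (median 28.97) in WT (-2.30, SE 0.135). Serpina3n, a secreted serine protease inhibitor that reactive astrocytes express, ranged from 6.62 to 8.55 (median 8.45) CPM in Cic-S-KO, from 32.3 to 37.95 (median 34.7) in Cic-L-KO and from 9.15 to 14.1 (median 10.3) in WT (-2.09, SE 0.0812, adjusted p = 1.36e-18, edgeR). Serpina3n was the one gene of the 10 in which Cic-S-KO also lay wholly below WT.

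The 10 furthest above in Cic-S-KO were Rspo1, Tspan11, Cpne5, Tnnc1, Palm3, Scn7a, C730002L08Rik, Ighg2c, Alox12b and Grm2. Rspo1, a secreted amplifier of WNT signalling and a layer 4 marker, ranged from 8.47 to 14.5 (median 11.01) CPM in Cic-S-KO, from 1.07 to 2.601 (median 1.74) in Cic-L-KO and from 9.34 to 17.82 (median 11.8) in WT (2.69, SE 0.153, adjusted p = 8.04e-14, edgeR). Tspan11, a tetraspanin membrane protein, ranged from 5.73 to 10.8 (median 7.15) CPM in Cic-S-KO, against 1.07 to 2.22 (median 1.33) in Cic-L-KO (2.37, SE 0.151). Cpne5, a calcium-dependent phospholipid-binding copine, ranged from 122 to 162 (median 139) CPM in Cic-S-KO, from 19.1 to 38.1 (median 29.4) in Cic-L-KO and from 92.1 to 116 (median 106) in WT (2.28, SE 0.122). The Cic-S-KO samples of Cpne5 thus lay above all WT samples and the Cic-L-KO samples below them.

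Tnnc1, the slow troponin C, ranged from 7.701 to 11.8 (median 9.54) CPM in Cic-S-KO, against 1.66 to 3.03 (median 2.09) in Cic-L-KO (2.06, SE 0.133). Scn7a, an atypical sodium channel that takes part in sodium sensing, ranged from 4.72 to 6.27 (median 5.601) CPM in Cic-S-KO, against 1.21 to 1.71 (median 1.41) in Cic-L-KO, beside 3.61 to 5.99 (median 4.999) in WT (1.93, SE 0.116). Grm2, a presynaptic metabotropic glutamate receptor, ranged from 65.7 to 81.3 (median 68.9) CPM in Cic-S-KO, from 16.7 to 32.3 (median 19.99) in Cic-L-KO and from 54.4 to 75.3 (median 62.3) in WT (1.74, SE 0.108, adjusted p = 1.81e-11, edgeR). Ighg2c, an immunoglobulin heavy chain constant gene, was at 4.75 ± 0.275 CPM (SD, n = 7) in Cic-S-KO, 1.34 ± 0.307 (n = 8) in Cic-L-KO and 3.91 ± 0.965 (n = 8) in WT. Palm3, C730002L08Rik and Alox12b had log2 fold changes between 1.82 and 1.98.

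**Figure D2:**
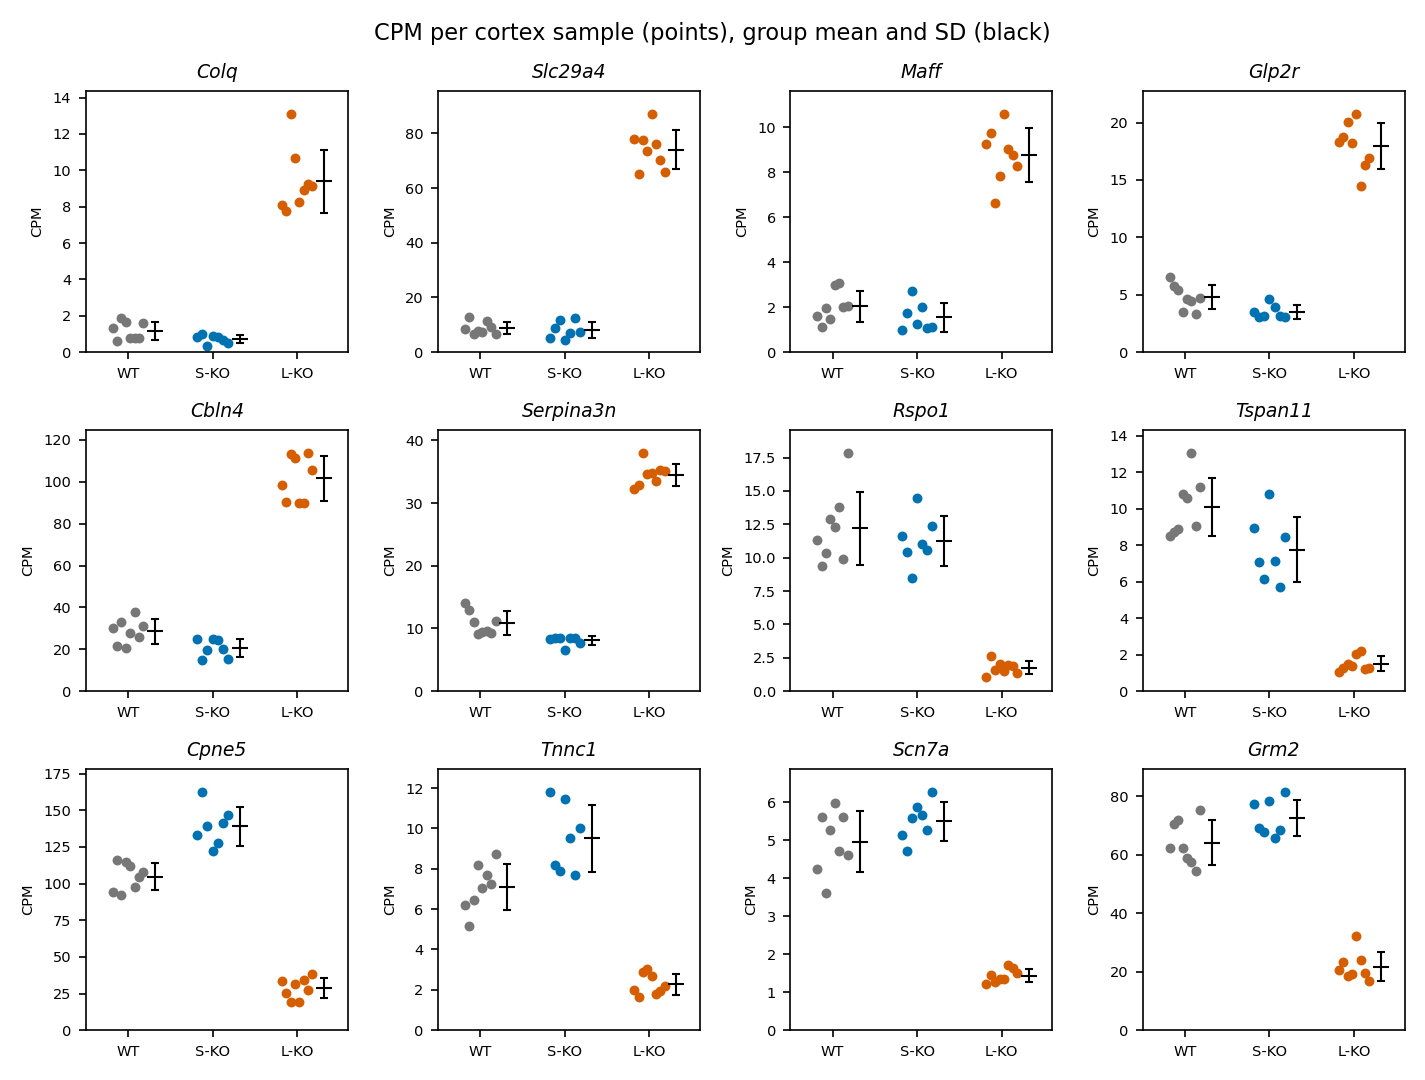
CPM of 12 of the genes with the largest differences in each cortex sample (points, linear axis from 0), with the group mean and SD in black, for WT (n = 8), Cic-S-KO (n = 7) and Cic-L-KO (n = 8). In each panel the Cic-L-KO samples lie apart from both other groups, above them in the first 6 genes and below them in the last 6.

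Of the 5757 genes past the threshold, the Cic-L-KO mean lay farther from the WT mean than the Cic-S-KO mean did in 4880 (84.8%). The median absolute log2 distance from WT was 0.27 for Cic-L-KO and 0.083 for Cic-S-KO, a description of group means with 0.5 CPM added. The WT mean lay between the knockout means in 3124 genes (54.3%). The CPM ranges of both knockouts overlapped that of WT in 3721 genes. Cic-L-KO alone missed the WT range in 1949 genes, Cic-S-KO alone in 53, and both in 34. The rule that a gene differ between the knockouts favours genes that moved in one of them, and no count above is a test against WT.

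The 53 genes in which Cic-S-KO alone missed the WT range were looked at after their values were seen. Hapln2, a matrix-linking protein of nodes of Ranvier made by oligodendrocytes, had the smallest p among them. It ranged from 4.99 to 7.803 (median 7.22) CPM in Cic-S-KO, from 14.1 to 22.4 (median 20.25) in Cic-L-KO and from 14.4 to 18.2 (median 17.2) in WT (-1.52, SE 0.0897, adjusted p = 2.25e-14, edgeR). Dab1, the adaptor that relays Reelin signals to migrating neurons, was at 104 ± 3.82 CPM (SD, n = 7) in Cic-S-KO, 141 ± 6.700 (n = 8) in Cic-L-KO and 121 ± 5.08 (n = 8) in WT (-0.44, SE 0.035). Cadps, which primes dense-core vesicles for release, was at 329.6 ± 12.8, 439 ± 29.2 and 363 ± 19.3 CPM in the same order of groups (-0.41, SE 0.0406). Otop2, a proton channel, stood higher, at 2.72 ± 0.939 CPM in Cic-S-KO against 0.527 ± 0.177 in Cic-L-KO and 1.29 ± 0.392 in WT (2.36, SE 0.234). Dab1, Cadps and Hapln2 were lowest in Cic-S-KO and highest in Cic-L-KO, with WT between.

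Of the 34 genes in which both knockouts missed the WT range, 11 had the knockouts on opposite sides of WT and 23 on the same side. Pacsin2, which bends membranes in endocytosis, was at 64.5 ± 2.19 CPM (SD, n = 7) in Cic-S-KO, 139.9 ± 6.07 (n = 8) in Cic-L-KO and 73.7 ± 2.54 (n = 8) in WT. Pfkl, the liver-type phosphofructokinase of glycolysis, was at 226 ± 7.32, 156 ± 9.69 and 205 ± 5.38 CPM in the same order (0.53, SE 0.035, adjusted p = 2.8e-13, edgeR). Serpina3n, Cpne5 and the neuropeptide gene Adcyap1 were also among the 11.

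Of 18 described Capicua targets, all of which were tested, 11 were lower in Cic-S-KO cortex than in that of Cic-L-KO and 1 was higher, against 16.5% and 17.4% of all tested genes. Their median log2 fold change was -0.26, beside -0.0038 over all tested genes. The list was chosen with results of these samples known, and is no independent evidence of its direction. Maff, a small Maf transcription factor, had the largest difference of the list: it ranged from 1.005 to 2.73 (median 1.24) CPM in Cic-S-KO, from 6.63 to 10.6 (median 8.91) in Cic-L-KO and from 1.14 to 3.07 (median 1.98) in WT (-2.50, SE 0.196, adjusted p = 5.2e-11, edgeR). Etv4, an Ets transcription factor, ranged from 11.1 to 13.5 (median 11.4) CPM in Cic-S-KO, from 18.7 to 23.8 (median 22.4) in Cic-L-KO and from 7.19 to 13.2 (median 10.4) in WT (-0.89, SE 0.0846). Spred3, an inhibitor of the RAS and MAP kinase pathway, ranged from 52.8 to 72.7 (median 59.55) CPM in Cic-S-KO, against 82.5 to 95.8 (median 89.8) in Cic-L-KO, with 47.5 to 69.5 (median 60.8) in WT (-0.55, SE 0.0678). In all 3 the Cic-S-KO samples lay below every Cic-L-KO sample and overlapped WT. Over the target list, 5 of 18 genes did not overlap between the knockouts, beside 10.6% of all tested genes.

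The Ets factor Etv5 was at 132 ± 29.2 CPM (SD, n = 7) in Cic-S-KO, against 211 ± 16.7 (n = 8) in Cic-L-KO (-0.67, SE 0.116), and the adaptor Shc3 at 83.6 ± 10.1 and 129 ± 11.3 (-0.63, SE 0.0808). The feedback inhibitors Dusp4 (-0.75), Spry4 (-0.70), Spred2 (-0.46) and Spry2 (-0.19), the cyclin Ccnd1 (-0.32) and the secreted peptide precursor Vgf (-0.20) were the other genes of the list that were lower. Etv1, also a layer 5 marker, was the one that was higher: it ranged from 97.1 to 131 (median 118) CPM in Cic-S-KO, from 82.9 to 100.2 (median 89.7) in Cic-L-KO and from 103 to 134 (median 118) in WT (0.38, SE 0.0578, adjusted p = 6.24e-06, edgeR). Dusp6, with 2 octamers in the searched window, did not pass (0.18, adjusted p = 0.296, edgeR). With the choroid plexus and striatal sums in the fit, 9 were lower and 1 higher.

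The octamer was in the promoter of 3.153% of the tested genes that had an entry. It was in 2.729% of those higher in Cic-S-KO and 3.666% of those lower, and in 7 of 150 genes lower by at least 1 on the log2 scale (4.667%) and 2 of 97 higher by as much (2.062%). These shares are descriptions. Beside Maff, the 7 were Dmp1, Plce1, Hcrtr1, Plb1, Upp1 and Tnni3k. Plce1, a phospholipase C that RAS activates, was at 11.8 ± 2.51 CPM (SD, n = 7) in Cic-S-KO, 37.3 ± 4.34 (n = 8) in Cic-L-KO and 10.6 ± 2.75 (n = 8) in WT.

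Of the 6 genes of the Capicua complex and its corepressors, 3 were lower in Cic-S-KO and 1 was higher (4 and 1 with the covariates). Atxn1 ranged from 77.5 to 88.3 (median 80.2) CPM in Cic-S-KO, from 158 to 195 (median 179) in Cic-L-KO and from 87.1 to 105 (median 96.5) in WT (-1.13, SE 0.0459, adjusted p = 3.22e-18, edgeR), without overlap between the knockouts. Atxn1l ranged from 54.9 to 62.3 (median 58.6) CPM in Cic-S-KO, against 56.98 to 62.7 (median 59.6) in Cic-L-KO and did not pass (-0.031, SE 0.036, adjusted p = 0.547, edgeR). The corepressor scaffold Sin3a was at 38.3 ± 1.203 CPM in Cic-S-KO, against 32.7 ± 1.64 in Cic-L-KO (0.23), and the histone deacetylase Hdac1 at 31.6 ± 1.02 and 35.1 ± 1.82 (-0.15).

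**Figure D3:**
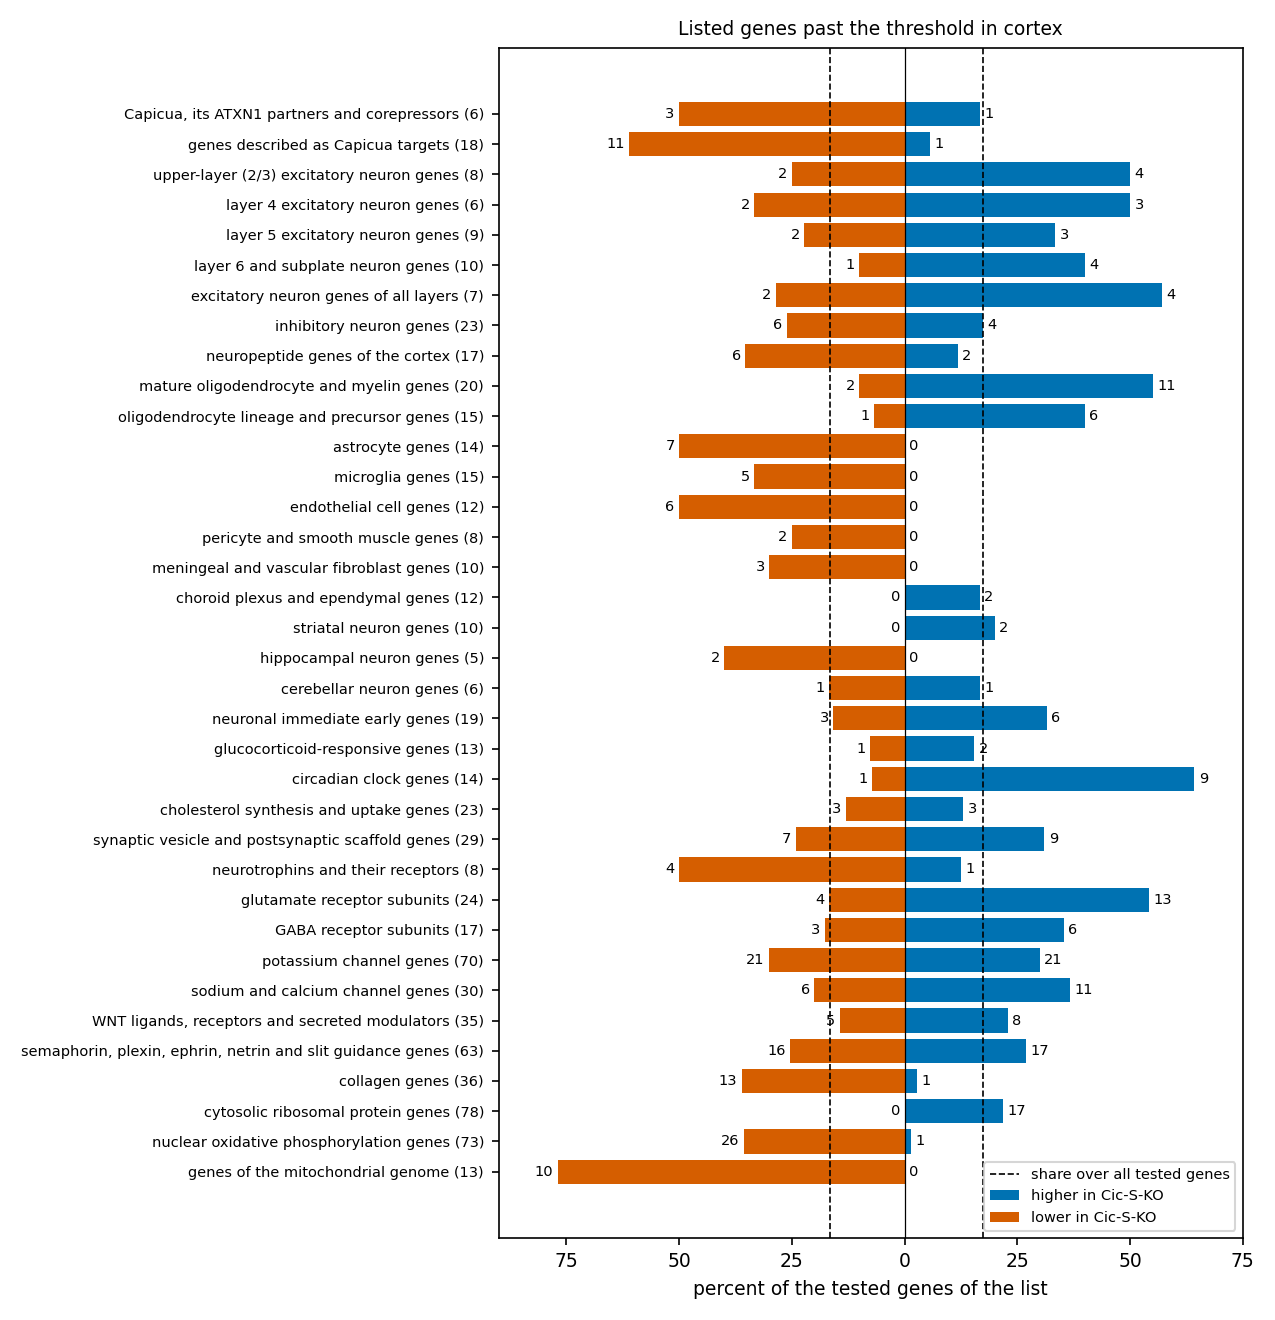
Percent of the tested genes of each list (number in parentheses) that passed the threshold, higher in Cic-S-KO to the right and lower to the left, with the number of genes at each bar. The red blood cell and sex-linked lists, with 0 genes past the threshold, are not drawn. Dashed lines mark the shares over all tested genes, 17.4% higher and 16.5% lower; 11 of 18 Capicua targets and 10 of 13 mitochondrial genes lie to the left, and 9 of 14 clock genes to the right.

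Several general markers of excitatory neurons were higher in Cic-S-KO cortex than in that of Cic-L-KO. Of the 7 tested, 4 were higher and 2 lower, with a median of 0.32. Slc17a7, the vesicular glutamate transporter of cortical neurons, ranged from 1471 to 1746 (median 1614) CPM in Cic-S-KO, from 1148 to 1349.9 (median 1232) in Cic-L-KO and from 1563 to 1715 (median 1607) in WT (0.37, SE 0.0358, adjusted p = 1.54e-09, edgeR). Camk2a, a kinase of excitatory synapses, ranged from 3324 to 4373 (median 3909) CPM in Cic-S-KO, against 2646 to 3102 (median 2833) in Cic-L-KO (0.46, SE 0.0515). Neither gene overlapped between the knockouts. Over the excitatory list, 3 of 7 genes did not overlap, beside 10.6% of all tested genes. Tbr1 (0.38) and Neurod2 (0.32), transcription factors of cortical projection neurons, were also higher, while Neurod6 (-0.29) and the vesicular glutamate transporter Slc17a6 (-0.54) were lower. In whole tissue, fewer cells of a type and less RNA per cell cannot be told apart.

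Layer markers moved in both directions within each layer. Of 8 upper-layer genes 4 were higher and 2 lower, of 6 layer 4 genes 3 and 2, of 9 layer 5 genes 3 and 2, and of 10 layer 6 and subplate genes 4 and 1. With the covariates the upper-layer counts were 3 and 2, those of layer 5 were 3 and 1 and those of layer 6 were 3 and 1. Without Cic-L-KO replicate 2, 2 layer 6 genes were lower. Otof, the otoferlin gene, was at 48.1 ± 11.5 CPM (SD, n = 7) in Cic-S-KO, 20.6 ± 5.498 (n = 8) in Cic-L-KO and 26.8 ± 6.84 (n = 8) in WT (1.22, SE 0.188). Mdga1, an adhesion molecule of upper-layer neurons, ranged from 29.9 to 48.1 (median 38.6) CPM in Cic-S-KO, from 64.8 to 85.3 (median 72.9) in Cic-L-KO and from 22.1 to 38.96 (median 27.4) in WT (-0.97, SE 0.11, adjusted p = 3.55e-07, edgeR). Within layer 4, Rspo1 and the potassium channel gene Kcnh5 (0.89) were higher and Whrn (-0.56) lower. Foxp2, a transcription factor of layer 6 neurons, ranged from 16.8 to 28.9 (median 24.3) CPM in Cic-S-KO, from 10.03 to 14.9 (median 13.3) in Cic-L-KO and from 14.8 to 21.3 (median 18.6) in WT (0.92, SE 0.1). Rprm, also of layer 6, was higher as well (0.96), while the synaptotagmin gene Syt6 was lower (-0.45).

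Interneuron genes did not move together. Of 23 tested, 6 were lower in Cic-S-KO and 4 higher (8 and 4 with the covariates), and the median was 0.068. The general markers Gad1 and Gad2, which encode the enzymes that make GABA, did not pass: Gad1 ranged from 327 to 474 (median 420.5) CPM in Cic-S-KO, against 401 to 485 (median 449) in Cic-L-KO, a log2 fold change of -0.13 (SE 0.0542, adjusted p = 0.0755, edgeR). The neuropeptide gene Npy ranged from 44.5 to 59.4 (median 51.3) CPM in Cic-S-KO, from 93.1 to 116 (median 105) in Cic-L-KO and from 53.3 to 69.1 (median 60.2) in WT (-1.06, SE 0.0567, adjusted p = 4.3e-15, edgeR). Sst, the somatostatin gene, ranged from 147 to 196 (median 169) CPM in Cic-S-KO, from 285 to 317 (median 304) in Cic-L-KO and from 177 to 195 (median 182) in WT (-0.81, SE 0.0466). Pvalb, the calcium buffer of fast-spiking interneurons, ranged from 39.8 to 54.8 (median 48.7) CPM in Cic-S-KO, against 61.6 to 80.5 (median 74.5) in Cic-L-KO, with 46.1 to 70.3 (median 57.8) in WT (-0.62, SE 0.0876). None of the 3 overlapped between the knockouts. Over the interneuron list, 5 of 23 genes did not overlap, beside 10.6% of all tested genes. Calb2 (0.86), Ndnf (0.71), Adarb2 (0.50) and Cnr1 (0.16) were the genes of the list that were higher.

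Of 17 neuropeptide genes, 6 were lower in Cic-S-KO and 2 were higher (5 and 2 with the covariates). In either direction 47.06% passed, beside 33.9% of all tested genes. Beside Npy and Sst, Adcyap1, which encodes PACAP, was at 18.2 ± 0.905 CPM (SD, n = 7) in Cic-S-KO, 37.3 ± 4.52 (n = 8) in Cic-L-KO and 23.9 ± 2.81 (n = 8) in WT (-1.03, SE 0.0729). Cort, the cortistatin gene, was at 4.66 ± 0.572 CPM in Cic-S-KO, against 8.99 ± 1.37 in Cic-L-KO (-0.95), and Cartpt was lower too (-0.66). Pdyn, the dynorphin precursor gene, was higher (0.80), as was Tac2 (0.44). Pdyn is also expressed in striatal neurons, whose marker sum is given above.

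Myelin genes were mostly higher in Cic-S-KO: 11 of 20 passed in that direction and 2 in the other, with a median of 0.26. Mag, a myelin adhesion molecule, ranged from 194 to 253 (median 215) CPM in Cic-S-KO, from 126 to 181 (median 159.8) in Cic-L-KO and from 137 to 172 (median 151) in WT (0.49, SE 0.0688, adjusted p = 3.87e-06, edgeR). Mag in Cic-S-KO lay above every Cic-L-KO and WT sample. Opalin (0.70), Mal (0.63), Tspan2 (0.62) and Mog (0.46) were also higher. Mbp was at 2898 ± 421 CPM in Cic-S-KO, against 2537 ± 217 in Cic-L-KO and did not pass (0.19, adjusted p = 0.0849, edgeR). The exceptions were Hapln2, described above, and Ndrg1 (-0.23).

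Of 15 genes of the oligodendrocyte lineage, 6 were higher and 1 lower. Enpp6, a marker of newly formed oligodendrocytes, ranged from 11.4 to 17.7 (median 14.45) CPM in Cic-S-KO, from 8.17 to 9.897 (median 8.79) in Cic-L-KO and from 7.84 to 13.8 (median 10.3) in WT (0.66, SE 0.106). Bmp4 (0.63), Sp7 (0.57) and the receptor Gpr17 (0.41) were higher, and the precursor marker Pdgfra was lower (-0.14). Without Cic-L-KO replicate 7, 5 lineage genes were higher and 2 lower. Pdgfra did not pass without Cic-L-KO replicate 2, 5, 6 or 8 or Cic-S-KO replicate 2, 4, 6 or 7 (adjusted p up to 0.1004, edgeR). With the choroid plexus and striatal sums in the fit, 3 of the lineage genes were higher and 1 lower, and 10 and 2 of the myelin genes. The summed CPM of the 20 myelin genes ranged from 5840 to 8912 (median 7009) in Cic-S-KO, from 5231 to 6869 (median 6138) in Cic-L-KO and from 5460 to 7584 (median 6131) in WT. The Cic-L-KO mean was farther from the WT mean than the Cic-S-KO mean in 8 of the 20.

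Astrocyte, microglial and vascular genes lay on the lower side in Cic-S-KO. Of 14 astrocyte genes 7 were lower and 0 higher (median -0.21), of 15 microglial genes 5 and 0 (median -0.16), and of 12 endothelial genes 6 and 0 (median -0.27). Of 8 pericyte and smooth muscle genes, 2 were lower and 0 higher. Over all tested genes, 16.5% were lower and 17.4% higher, 33.9% in either direction. The share of microglial genes past the threshold was near that 33.9%, and that of pericyte and smooth muscle genes was below it. The astrocyte and endothelial shares, 7 of 14 and 6 of 12, were above 33.9%. The microglial and the pericyte and smooth muscle lists thus departed from all tested genes in their direction, without a higher share passing. DESeq2 also called 0 genes of these 4 lists higher, and at an unadjusted p under 0.05 (edgeR) 1 microglial gene and 0 of the others were higher. With the covariates 5 endothelial genes and 3 of pericytes and smooth muscle were lower. Without Cic-S-KO replicate 4, 1 microglial gene was higher. Among astrocyte genes, the gap junction gene Gjb6 was at 56.4 ± 7.25 CPM (SD, n = 7) in Cic-S-KO, against 83.8 ± 10.4 (n = 8) in Cic-L-KO (-0.57), and Ntsr2 (-0.38) and Gja1 (-0.32) were lower too. Gfap, the intermediate filament of reactive astrocytes, was at 193 ± 19.6 and 224 ± 44.4 CPM and did not pass (-0.21, adjusted p = 0.212, edgeR).

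The complement gene C1qa (-0.31) and the receptor gene Csf1r (-0.26) were among the microglial genes that were lower, and P2ry12, at 43.1 ± 4.18 CPM in Cic-S-KO, against 42.8 ± 3.84 in Cic-L-KO, did not pass. Kdr, the main VEGF receptor of endothelium, ranged from 9.02 to 13.8 (median 11.2) CPM in Cic-S-KO, from 17.4 to 28.5 (median 24.6) in Cic-L-KO and from 9.29 to 20.99 (median 14.1) in WT (-1.08, SE 0.136, adjusted p = 1.06e-06, edgeR). Tek, the angiopoietin receptor, was at 12.8 ± 1.47 CPM (SD, n = 7) in Cic-S-KO, against 19.2 ± 1.72 (n = 8) in Cic-L-KO (-0.58, SE 0.0757). The tight junction gene Cldn5 was at 22.2 ± 5.202 and 36.97 ± 4.11 CPM (-0.73). None of these 3 endothelial genes overlapped between the knockouts, while Pecam1 did not pass (-0.16). Over the endothelial list, 4 of 12 genes did not overlap, beside 10.6% of all tested genes.

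**Figure D4:**
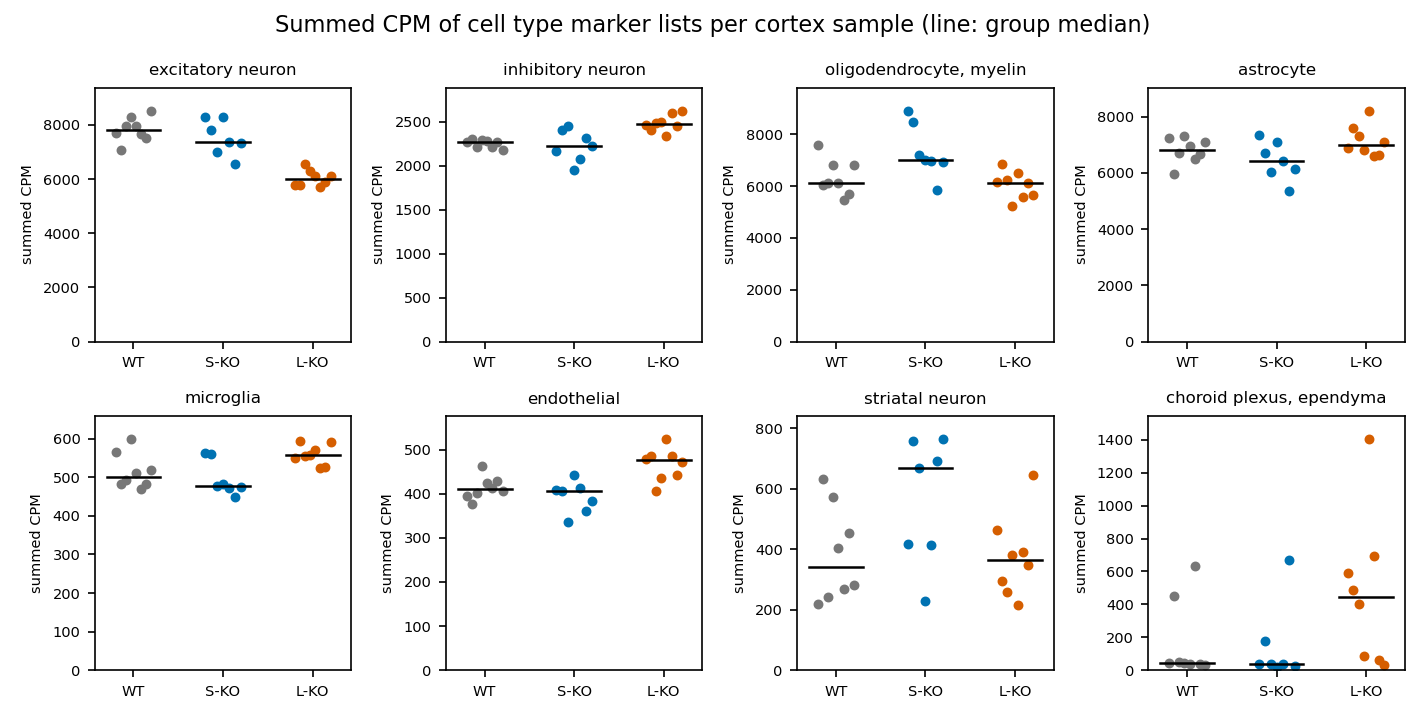
Summed CPM of 8 cell type marker lists in each cortex sample (points) with the group median (line), for WT (n = 8), Cic-S-KO (n = 7) and Cic-L-KO (n = 8). The excitatory neuron sum runs from 6578 to 8287 in Cic-S-KO and from 5708 to 6563 in Cic-L-KO, and the choroid plexus and ependymal sum spreads from 20.8 to 1404 over the knockout samples.

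The markers of neighbouring tissue varied widely within each group. Ttr, the transthyretin of choroid plexus, ranged from 4.63 to 554 (median 10.6) CPM in Cic-S-KO, from 5.96 to 1139 (median 356) in Cic-L-KO and from 13.6 to 533 (median 18.3) in WT, and did not pass (-1.83, SE 1.24, adjusted p = 0.274, edgeR). Of 12 choroid plexus and ependymal genes, 2 were higher in Cic-S-KO (the ependymal genes Ccdc153, 0.92, and Tmem212, 1.03) and 0 lower with edgeR, against 2 and 5 with DESeq2 and 2 and 7 at an unadjusted p under 0.05. Without Cic-S-KO replicate 6, the library with the highest sum of its group, 2 were higher and 9 lower. With the covariates the counts were 2 and 2. Without Cic-L-KO replicate 8 the counts were 2 and 3, without Cic-L-KO replicate 4 or 7 they were 2 and 1, and without Cic-S-KO replicate 1 they were 1 and 0, with Tmem212 no longer past the threshold. Of 10 striatal genes, 2 were higher (Ppp1r1b and Syndig1l), all 10 had a positive log2 fold change, and the median was 0.78. Ppp1r1b, the DARPP-32 gene, ranged from 66.8 to 222 (median 188) CPM in Cic-S-KO, against 50.9 to 151 (median 76.6) in Cic-L-KO, a log2 fold change of 0.92 (SE 0.3, adjusted p = 0.0223, edgeR). Without Cic-S-KO replicate 2, or without Cic-S-KO replicate 7, 0 striatal genes passed, against 3 at an unadjusted p under 0.05 and 2 with DESeq2 in all samples. Without Cic-L-KO replicate 5, or without Cic-S-KO replicate 3 or 6, 1 passed, and with the covariates 2 were higher and 1 lower. The covariates are sums over these same choroid plexus, ependymal and striatal genes, so the counts with them do not test either list.

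Meningeal and fibroblast genes (10 tested) were lower at 3, namely Igf2 (-0.84), Slc6a13 (-0.61) and Aldh1a2 (-0.56), and with the covariates at 0, where 1 was higher. Without a low-count filter 0 of the 10 passed. Aldh1a2 did not pass without Cic-L-KO replicate 6 (adjusted p = 0.053, edgeR), nor Igf2 without Cic-L-KO replicate 1, 5 or 6 or Cic-S-KO replicate 1 or 7 (up to 0.0734). Without Cic-L-KO replicate 5 or 6 or Cic-S-KO replicate 2, 1 of the 10 was higher. Of 5 hippocampal genes, 2 were lower: Iyd, which was low in both knockouts (0 to 0.446 CPM in Cic-S-KO, against 0.49 to 1.14 in Cic-L-KO), and Dsp, which ranged from 0.49 to 16.3 CPM in Cic-L-KO and from 0.289 to 1.34 in Cic-S-KO. Without Cic-L-KO replicate 5, Dsp did not pass (-1.06, adjusted p = 0.101, edgeR), and 1 of the 5 was higher and 1 lower, as also with the covariates. Of 6 cerebellar genes, Cbln1 was higher (0.48) and Car8 lower (-0.26), with 1 and 0 with the covariates. Of 5 red blood cell and 5 sex-linked genes, 0 passed with edgeR or DESeq2, and 0 at an unadjusted p under 0.05.

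Genes of the circadian clock were largely higher in Cic-S-KO. Of 14 tested, 9 were higher and 1 lower, with a median of 0.36. With the covariates the counts were 10 and 2, and without Cic-S-KO replicate 4 they were 9 and 2. Ciart, a repressor of the clock, ranged from 13.95 to 30.4 (median 19.9) CPM in Cic-S-KO, from 5.23 to 8.34 (median 6.28) in Cic-L-KO and from 8.15 to 25.1 (median 10.8) in WT (1.72, SE 0.211, adjusted p = 1.35e-06, edgeR). Tef, a PAR bZIP output factor, ranged from 389 to 427 (median 411) CPM in Cic-S-KO, against 243 to 296 (median 271.5) in Cic-L-KO, with 324 to 413 (median 356) in WT (0.60, SE 0.0489). Dbp, of the same family, was at 53.99 ± 7.402 CPM (SD, n = 7) in Cic-S-KO, against 21.6 ± 3.59 (n = 8) in Cic-L-KO (1.32), and Per1 (0.70), Per3 (0.46), Nr1d2 (0.43) and Nr1d1 (0.38) were higher too. Cry1, a core repressor, was the one that was lower: it ranged from 18.2 to 24.6 (median 22.1) CPM in Cic-S-KO, against 27.7 to 36.1 (median 31.4) in Cic-L-KO (-0.57, SE 0.0709). Arntl (-0.20) and Clock (-0.08) did not pass. The labels give no time of day of collection, so that genotype and collection time cannot be told apart for these genes.

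Of 19 neuronal immediate early genes, 6 were higher in Cic-S-KO and 3 lower (4 and 3 with the covariates). Junb ranged from 80.3 to 153 (median 104) CPM in Cic-S-KO, against 37.6 to 61.4 (median 52.96) in Cic-L-KO without overlap (1.06, SE 0.233, adjusted p = 0.00123, edgeR). WT samples were wider than both, from 28.3 to 152 (median 92.1) CPM. Egr4 (0.99), Npas4 (0.86), Nr4a1 (0.83), Egr1 (0.80) and Ier2 (0.62) were also higher, while Bdnf (-0.55), Nptx2 (-0.67) and Jun (-0.24) were lower. Fos was at 56.8 ± 16.3 CPM in Cic-S-KO, against 38.9 ± 7.12 in Cic-L-KO and did not pass (0.55, adjusted p = 0.149, edgeR). Of 13 glucocorticoid-responsive genes, 2 were higher (Per1 and Map3k6) and 1 was lower (Pdk4). The share past the threshold, 23.08%, was below the 33.9% of all tested genes. Map3k6 did not pass without Cic-S-KO replicate 4 (adjusted p = 0.0604, edgeR). With the covariates 2 were higher and 0 lower. Of 8 neurotrophin and receptor genes, 4 were lower, among them Ntf3, Bdnf and Ntrk2, and 1 was higher (Sort1). The count higher was 3 without Cic-L-KO replicate 6 and 2 without Cic-S-KO replicate 1, 4 or 5, and 2 with DESeq2.

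At the synapse, 9 of 29 vesicle and scaffold genes were higher in Cic-S-KO and 7 lower (9 and 6 with the covariates), and their median was 0.0028. Syn3, a synapsin that coats vesicles, ranged from 11.03 to 14.4 (median 12.45) CPM in Cic-S-KO, from 25.9 to 35.1 (median 31.5) in Cic-L-KO and from 10.6 to 14.1 (median 12.6) in WT (-1.31, SE 0.0675, adjusted p = 9.16e-16, edgeR). Sv2b, a vesicle glycoprotein, ranged from 511 to 621 (median 578) CPM in Cic-S-KO, from 341 to 424 (median 389) in Cic-L-KO and from 598 to 682 (median 639.9) in WT (0.58, SE 0.0469). The calcium sensor of release Syt1 (0.36) and the SNARE gene Snap25 (0.23) were higher as well. The Cic-S-KO and WT ranges of Syn3 overlapped, whereas most Sv2b samples of Cic-S-KO lay below the WT range.

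Glutamate receptor subunits were mostly higher: of 24 tested, 13 were higher and 4 lower (11 and 4 with the covariates), with a median of 0.17. Beside Grm2, these included Grm3 (0.53), the AMPA subunit Gria3, at 290.3 ± 21.2 CPM (SD, n = 7) in Cic-S-KO, against 236 ± 12.1 (n = 8) in Cic-L-KO, and the essential NMDA subunit Grin1 (0.20). Gria1 was lower (-0.23). Of 17 GABA receptor subunits, 6 were higher and 3 lower (4 and 3 with the covariates). Gabra4 ranged from 105 to 131 (median 118) CPM in Cic-S-KO, against 72.3 to 91.2 (median 80.7) in Cic-L-KO, a log2 fold change of 0.56 (SE 0.0469, adjusted p = 6.02e-11, edgeR). Gabra2 went the other way, from 53.7 to 77.5 (median 62.6) CPM in Cic-S-KO, against 93.5 to 102 (median 95.4) in Cic-L-KO (-0.59, SE 0.0596). These alternative alpha subunits thus differed in opposite directions, each without overlap. Over the GABA receptor list, 3 of 17 genes did not overlap, beside 10.6% of all tested genes.

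Of 70 potassium channel genes, 21 were higher and 21 lower in Cic-S-KO (22 and 20 with the covariates). Kcnk10, a background channel of the TREK family, ranged from 8.02 to 10.9 (median 10.4) CPM in Cic-S-KO, from 20.1 to 26.8 (median 23.1) in Cic-L-KO and from 9.96 to 13.8 (median 11.6) in WT (-1.22, SE 0.0766, adjusted p = 1e-13, edgeR). The modifier subunits Kcns1 (-0.98) and Kcng4 (-1.26) were lower too. The inward rectifier genes Kcnj2 (0.66) and Kcnj3 (0.51) were higher. Of 30 sodium and calcium channel genes, 11 were higher and 6 lower (10 and 5 with the covariates). Among them Scn4b was at 153 ± 36.5 CPM in Cic-S-KO, against 80.4 ± 28.02 in Cic-L-KO (0.93). The striatal marker sum was also higher in Cic-S-KO (median 669 CPM, against 365 in Cic-L-KO), and its part in the Scn4b difference was not tested. The T-type channel genes Cacna1i (0.43) and Cacna1g (-0.35) differed in opposite directions.

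Of 35 WNT pathway genes, 8 were higher and 5 lower, shares near the 17.4% and 16.5% of all tested genes. The counts were 7 and 4 with the covariates, and 8 and 3 without Cic-L-KO replicate 6 or Cic-S-KO replicate 1. The ligands Wnt3 (0.75) and Wnt9a (0.63), the amplifier Rspo1 and its receptor Lgr5 (0.51) were higher in Cic-S-KO. The secreted antagonists split: Sfrp5, Sfrp4 (-0.82) and Sfrp2 (-0.47) were lower, and Frzb was higher, at 25.1 ± 2.84 CPM (SD, n = 7) in Cic-S-KO, against 11.1 ± 1.81 (n = 8) in Cic-L-KO (1.18). Of 63 axon guidance genes, 17 were higher and 16 lower (18 and 13 with the covariates). In either direction 52.38% of these guidance genes passed, beside 33.9% of all tested genes. The repellent Slit1 ranged from 56.1 to 73.04 (median 60.8) CPM in Cic-S-KO, from 103 to 128 (median 109) in Cic-L-KO and from 55.4 to 68.4 (median 64.96) in WT (-0.80, SE 0.0576, adjusted p = 6.2e-12, edgeR). The semaphorin receptor Plxnd1 ranged from 109 to 145 (median 132.5) CPM in Cic-S-KO, against 56.8 to 82.7 (median 70.65) in Cic-L-KO, with 115 to 142 (median 129) in WT (0.88, SE 0.072). The semaphorin Sema5a (-0.77), the receptor Plxna4 (-0.55) and the coreceptor Nrp1 (-0.85) were lower.

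Collagen genes were lower in Cic-S-KO at 13 of 36 and higher at 1 (12 and 2 with the covariates), with a median of -0.25. In either direction 38.89% of the collagen genes passed, near the 33.9% of all tested genes. Over the fits without single libraries, 0 to 2 were higher. Col6a1, of microfibrillar collagen VI, ranged from 44.5 to 69.5 (median 62.2) CPM in Cic-S-KO, from 92.6 to 125 (median 113) in Cic-L-KO and from 28.8 to 59.3 (median 35.7) in WT (-0.97, SE 0.137, adjusted p = 1.03e-05, edgeR). The basement membrane pair Col4a1 and Col4a2 was at 33.6 ± 7.56 and 40.4 ± 8.66 CPM in Cic-S-KO, against 52.8 ± 5.42 and 64.1 ± 5.15 in Cic-L-KO. Both lie head to head in the genome and both were lower (-0.65 and -0.67). The fibroblast collagens Col1a1 (-0.26) and Col1a2 (-0.31) did not pass. Cholesterol genes were level on balance, with 3 of 23 higher (Hmgcs1, Srebf2 and Fdft1) and 3 lower (Pmvk, Dhcr7 and Sc5d). Their share past the threshold, 26.09%, was below the 33.9% of all tested genes. Without Cic-L-KO replicate 2, 7 were higher and 3 lower, and with the covariates 5 and 3.

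Transcripts of energy metabolism were slightly lower in Cic-S-KO. Of 73 nuclear genes of oxidative phosphorylation, 26 were lower and 1 higher (median -0.098), and 10 of 13 protein-coding genes of the mitochondrial genome were lower and 0 higher (median -0.22). With the covariates the counts lower were 24 and 7, with 0 higher in either list. Over the fits without single libraries, 0 to 3 of the nuclear genes were higher, and without Cic-S-KO replicate 6, 7 of the mitochondrial genes were lower. Ndufv3, a subunit of complex I, ranged from 33.3 to 37.5 (median 36.5) CPM in Cic-S-KO, from 44.2 to 51.1 (median 47.4) in Cic-L-KO and from 32.8 to 37.6 (median 35.15) in WT (-0.40, SE 0.0407, adjusted p = 3.69e-09, edgeR). The 73 nuclear genes together did not share this order. Their summed CPM had a median of 7453 in Cic-S-KO, 7773 in Cic-L-KO and 7847 in WT. The Cic-L-KO mean was farther from the WT mean than the Cic-S-KO mean in 29 of the 73. The mitochondrial transcripts mt-Nd1 (-0.22), mt-Nd5 (-0.22) and mt-Co1 (-0.16, adjusted p = 0.0338, edgeR) differed by little, and mt-Co1 did not pass without a low-count filter, with the covariates, or without Cic-L-KO replicate 2, 5 or 8 or Cic-S-KO replicate 3, 5 or 6. The 13 genes summed to between 37710 and 48680 CPM in Cic-S-KO, between 44210 and 51950 in Cic-L-KO and between 43050 and 50840 in WT. DESeq2 called 10 of them lower and 0 higher, and at an unadjusted p under 0.05 (edgeR) 11 were lower and 0 higher. Of 78 cytosolic ribosomal protein genes 17 were higher (median 0.065) and 0 lower with edgeR, against 19 and 0 with DESeq2 and 24 and 1 at an unadjusted p under 0.05. The share higher was near the 17.4% of all tested genes. Rpl3 was at 513 ± 36.5 CPM in Cic-S-KO, against 436 ± 9.15 in Cic-L-KO (0.23). The count higher was 5 without Cic-S-KO replicate 2, 11 without Cic-S-KO replicate 3 and 6 with the covariates, and 1 was lower without Cic-L-KO replicate 6.

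Within 10 Mb of Cic, 109 of 310 tested genes passed (35.2%), against 33.9% elsewhere. The strongest of these, chosen after the values were seen, was Pafah1b3, a subunit of a brain platelet-activating factor acetylhydrolase. It lies at 25295049 to 25297986 on chromosome 7, next to the end of Cic and on the other strand. It was at 8.496 ± 1.29 CPM (SD, n = 7) in Cic-S-KO, 28.3 ± 2.100 (n = 8) in Cic-L-KO and 8.28 ± 0.646 (n = 8) in WT (-1.73, SE 0.0761, adjusted p = 2.26e-17, edgeR). Whether counting used strand is not given in the sources used here. Gipr, the receptor of the gut hormone GIP, was also lower, at 2.07 ± 0.513 CPM in Cic-S-KO, against 7.74 ± 0.539 in Cic-L-KO (-1.91), and Kctd15 was higher (1.06). Over the autosomes the share past the threshold ran from 30.3% on chromosome 17 to 37.8% on chromosome 15.

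The same contrast in cerebellum was then set beside that in cortex. The Cic-S-KO minus Cic-L-KO difference itself differed between the regions at 2093 of 18032 genes (11.6%), 1047 more positive (5.81%) and 1046 more negative (5.8%) in cortex. At 1681 of the 2093 the difference was the larger in cortex. In this fit of 46 brain samples, 5724 genes passed in cortex (31.7%) and 2188 in cerebellum (12.1%). They shared 1262 genes, which is 22.1% of the cortex genes and 57.7% of the cerebellum genes, and 1121 of these had the same direction. The cortex and cerebellum libraries carry the same batch label, and whether they share animals is not stated.

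**Figure D5:**
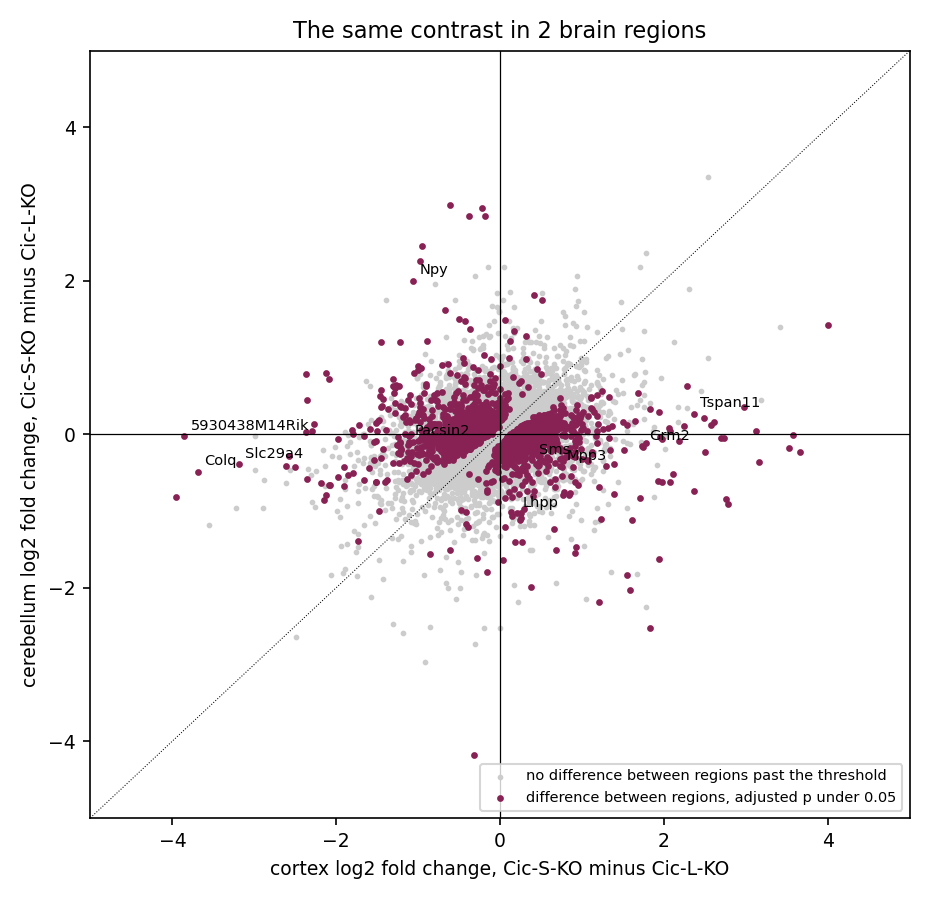
Log2 fold change (Cic-S-KO minus Cic-L-KO) in cortex (horizontal) and cerebellum (vertical) for the 18032 genes of the brain fit, with the 2093 genes whose difference was not the same in both regions in purple; 1 gene lies outside the axes, and the dotted line marks equal values. Npy lies at -1.06 in cortex and 2.00 in cerebellum.

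Npy had the smallest p of the comparison between regions (-3.06, SE 0.153, adjusted p = 1.32e-19, edgeR). It was lower in Cic-S-KO cortex (-1.06) and higher in Cic-S-KO cerebellum (2.00), where it was at 11.2 ± 2.09 CPM (SD, n = 7) in Cic-S-KO, 2.81 ± 0.748 (n = 8) in Cic-L-KO and 8.195 ± 1.41 (n = 8) in WT. Cerebellar levels were thus well under those of cortex in all 3 genotypes. Colq differed by -3.19 between the regions, and was -3.68 in cortex and -0.49 in cerebellum. For Slc29a4 the values were -3.19 and -0.39, and for 5930438M14Rik -3.85 and -0.027. Slc29a4 in cerebellum was at 37.3 ± 3.86 CPM in Cic-S-KO, against 48.9 ± 6.08 in Cic-L-KO, so that it was well expressed there in both. Pacsin2 was -1.11 in cortex and -0.096 in cerebellum.

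On the other side Grm2 was 1.74 in cortex and -0.16 in cerebellum (difference 1.90, SE 0.132, adjusted p = 6.95e-15, edgeR), with cerebellar levels of 19.8 ± 2.32 CPM in Cic-S-KO, against 22.1 ± 2.08 in Cic-L-KO. Tspan11 was 2.37 in cortex and 0.27 in cerebellum. Lhpp, a histidine phosphatase, owed its difference mainly to cerebellum, at 0.20 in cortex and -1.02 in cerebellum, and its cortex value did not pass without a low-count filter or without Cic-L-KO replicate 2, 3, 4, 7 or 8 or Cic-S-KO replicate 2, 3 or 5 (adjusted p up to 0.094, edgeR). Sms, the spermine synthase gene, was 0.39 in cortex and -0.34 in cerebellum, and Mpp3, a membrane scaffold, 0.73 and -0.42. Sms and Mpp3 thus passed in opposite directions in the 2 regions. Among the Capicua genes, Atxn1 was lower in Cic-S-KO in both regions, at -1.13 in cortex and -0.58 in cerebellum, and the regions differed (-0.55, SE 0.0891, adjusted p = 9.69e-06, edgeR). Etv4 was -0.89 in cortex and -0.12 in cerebellum, where it did not pass (adjusted p = 0.296, edgeR), and this difference between regions passed too (-0.77).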

How the data were processed

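The deposited table held unnormalised counts per gene, per the file header and values, as whole numbers for 50789 versioned Ensembl identifiers. The submitters' processing notes name STAR 2.7 and GRCm38.p6. The counting program, annotation and strand setting are not given in the sources used here. Names and positions came from GENCODE M21, in which 50725 identifiers matched when the version was ignored. Genes of chromosome 1 and parts of chromosomes 17, 18 and 19 were not analysed here, and a few other genes are not reported here. Promoter sequences came from RefSeq on the same build.

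Counts were tested with edgeR 4.0.16 in R 4.3.3 (TMM, filterByExpr on genotype, robust quasi-likelihood F test, Benjamini-Hochberg over all tested genes). The fit held all 23 cortex samples. WT entered the filter, the normalisation and the shared spread, but not the contrast. The region contrast held 46 brain samples. SE was derived from F. CPM is TMM-normalised. Replicates were compared by chi-square, and 0 pairs were identical. The fit was tested on simulated data.

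Named genes were Cic, Atxn1 and Atxn1l; the 10 largest differences in each direction with mean log2 CPM of at least 1 and no overlap between knockouts; from each list up to 4 past the threshold by p and the 2 listed first; the 5 smallest p in each direction between regions; and the 5 most abundant in each direction. Other genes are named as list members or marked as chosen later. Members and lists were chosen with earlier results of these data known.

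Alternatives were DESeq2 1.42.0, RLE, other filters, a non-robust fit, the 15 knockout samples alone, Y-linked expression, GC content and exon length (20 bins), replicate blocks, a fold threshold, leaving out genes near Cic or each library and, chosen after seeing the data, the choroid plexus and striatal sums.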

Additional observations from a re-analysis of the deposited data

Results flagged for a closer look

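Over the genes, marker sums and totals whose values are printed for the knockout groups, 120 groups of samples were examined for a single sample far from the others, and 6 had one. Chance alone flags about 1 in 20 groups, which is 6.0 here. In each case the gap to the nearest sample is given as a share of the group's range. Serpina3n in Cic-S-KO replicate 4 was the lowest at 6.62 CPM, with the next at 7.74 (0.579). Grm2 in Cic-L-KO replicate 5 was the highest at 32.3 CPM, with the next at 23.9 (0.534). In Cic-L-KO replicate 4, Etv4 was the lowest at 18.7 CPM, with the next at 21.7 (0.594), and Hapln2 the lowest at 14.1 CPM, with the next at 19.1 (0.6). None of these samples reached the range of the other knockout. In Cic-S-KO replicate 6, Ttr was the highest at 554 CPM, with the next at 135 (0.763), and the summed CPM of the choroid plexus and ependymal list was 668, with the next at 178 (0.757).

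The Cic-S-KO minus Cic-L-KO difference departed between cortex and cerebellum at 2093 genes by a test of the difference itself. The named genes among them, as cortex minus cerebellum, were 5930438M14Rik (-3.82), Colq (-3.19), Npy (-3.06), Slc29a4 (-2.80) and Pacsin2 (-1.02), and on the positive side Tspan11 (2.10), Grm2 (1.90), Lhpp (1.22), Mpp3 (1.15) and Sms (0.73).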

How the results depend on the processing

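The count of genes differing between the knockouts in cortex was 5769 with RLE, 6029 with DESeq2, 5346 without a low-count filter, 5285 with a mean of at least 50 counts, 5586 with the 15 knockout samples alone and 4420 with the choroid plexus and striatal sums (chosen after seeing the data). It moved by over 1.5 times where a difference of 0.5 on the log2 scale was also asked for, to 1617. Leaving out each library gave between 5251 and 6001. The region count ran from 1659 without a filter to 2332 with DESeq2, and from 1875 to 2256 without single libraries. Between the knockouts, deviations of samples with the same replicate number had correlations from -0.14 to 0.226. By library number these ran from -0.0736 to 0.194. Samples of different numbers were not compared, so whether the numbers pair the samples cannot be told from these values. With the replicate block the cortex count was 5610, of which 5365 were shared with the 5757 in the report, 5621 by library number, and the region count 2246, of which 1951 were shared. Of the 157 named genes past the threshold, 0 reversed, 16 lost it under some setting and 11 without some library. Of the named genes that did not pass, 9 passed under some setting and 10 without some library. Genes that did not pass and changed sign were Gad2 (-0.097) and Drd2 (-0.30) with the covariates, P2ry12 (-0.0036 with GC content adjusted, -0.013 with exon length, -0.016 with the covariates, and -0.032 to 0.035 without single libraries), Ddx3y (0.17 with Y-linked expression as a covariate, 0.19 with the replicate block by library number, 0.055 with the choroid plexus and striatal sums, and -0.42 to 0.21 without single libraries) and Hba-a1 (-0.017 with the replicate block, and -0.12 to 0.14 without single libraries). Drd2 is part of the striatal sum and Ddx3y part of the Y-linked expression, so each was fitted beside a covariate that holds it. The cause of the changes of sign was not tested. The difference in total counts ran from -1148347 to 815843 without single libraries. Low counts limit genes under about 1 CPM, such as Colq in Cic-S-KO.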

Other observations

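Protein-coding genes passed between the knockouts more often than the 3 classes set beside them here. Of 13956 tested, 5218 passed (37.39%), against 176 of 674 long intergenic noncoding RNAs (26.11%), 113 of 613 antisense transcripts (18.43%) and 30 of 505 processed pseudogenes (5.941%). The shares are descriptions, and depth differs between the classes. Of the antisense transcripts that passed, 37 were higher in Cic-S-KO, and whether counting used strand is not given in the sources used here.

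The most abundant genes past the threshold differed by little. On the higher side they included Camk2a, the kinesin heavy chain gene Kif5a (0.18), the Camk2 inhibitor gene Camk2n1 (0.34) and Snap25. Kif5a was at 4463 ± 468 CPM (SD, n = 7) in Cic-S-KO, 3939 ± 246 (n = 8) in Cic-L-KO and 4772 ± 305 (n = 8) in WT. Camk2n1 was at 2441 ± 317, 1933 ± 179 and 2801 ± 227 CPM in the same order. On the lower side all 5 were encoded in the mitochondrial genome, among them the ribosomal RNA mt-Rnr2 (-0.35) and mt-Cytb (-0.16). Of the genes named here only Camk2a had knockout ranges that did not overlap.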
